A study of Mus musculus with 22 samples.

Results

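Coagulation and complement factors are plasma proteins that the liver makes and secretes, and their transcripts were followed here through loss of YAP1 in mouse hepatoblastoma. The members were 41 genes named by symbol, of 36555 genes in the deposited expression table, and all 41 were found. By role they were 14 clotting factors, 9 clotting inhibitors and fibrinolysis genes, and 18 complement genes. The rule went by symbol alone.

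Total RNA of liver tissue was sequenced in 14 samples. Livers labelled hbHep came from 3 mice of the FAH Delta Exon 5 genotype at days 121, 114 and 117 (mice 1, 2 and 3), each sequenced in 2 technical libraries that were averaged. Day 6 tumors were 4 hepatoblastomas taken 6 days after doxycycline was stopped, which turned YAP1 off. YAP1on tumors were 4 hepatoblastomas on doxycycline. Both tumor groups carried the transgene Tg(CAG-rtTA3)4288Slowe/J on a B6N.FVB(Cg) strain, in which the CAG promoter, active in most cell types, drives the doxycycline-dependent activator. FAH liver came from 3 FAH Delta Exon 5 mice kept on NTBC, a drug that protects livers lacking fumarylacetoacetate hydrolase. Each tumor group carries a single mouse code in the labels, so animal and treatment cannot be told apart between the tumors. In every comparison with a tumor group, tumors that may share an animal were counted as separate samples. This includes those against hbHep and FAH liver. The p-values rest on a spread pooled over all 4 groups, tumors and mice together. The sources used here state neither ages nor how many host cells remained in hbHep livers. Chromatin accessibility was read from interval lists of single ATAC-seq libraries: a YAP1on tumor, tissue at days 14, 33 and 64 after YAP1 loss, and a liver labelled WT.

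In the clotting cascade, serine proteases activate one another until thrombin (F2) cleaves fibrinogen, a hexamer of Fga, Fgb and Fgg chains, into fibrin. Antithrombin, heparin cofactor II and protein C with its cofactor protein S restrain the cascade, and plasmin dissolves the clot. Complement is a parallel protease system: C1r, C1s and the mannan-binding lectins with their MASP proteases start it, C3 and C5 carry it, and C6, C8 and C9 form the pore that lyses membranes. Hepatocytes are the main source of most of these proteins in adult mammals.

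Abundance below is the deposited signal after rescaling. It was taken to be per base, and comparisons of levels between genes rest on that reading. All 41 members passed the filter on low values, an abundance of at least 10 in at least 3 samples. Values are given for mice 1, 2 and 3 or tumors 1 to 4 in that order. Adjusted p-values are limma's, Benjamini-Hochberg adjusted over 17958 genes, with a threshold of 0.05. The 5 comparisons share samples with one another, so each is described by its own values.

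Yap1 ranged over 932.4 to 1310 in hbHep, 1097 to 1254 in day 6 tumors, 5309 to 10810 in YAP1on tumors and 1142 to 1353 in FAH liver. Fah ranged over 674.1 to 1152 in hbHep, 4347 to 5824 in day 6 tumors, 1470 to 2416 in YAP1on tumors and 1544 to 1825 in FAH liver, as a value for the whole gene that does not resolve the deleted exon. The Y-linked transcripts (Ddx3y, Uty, Kdm5d and Eif2s3y) summed to 3347 to 4908 in hbHep, 237.8 to 248.9 in day 6 tumors, 198.9 to 290.2 in YAP1on tumors and 4620 to 6020 in FAH liver. Sex, strain and group therefore cannot be told apart between the tumors and the other groups. A pair of samples stood apart over the members. Mouse 2 was the lowest of 3 hbHep mice in 40 of 41 members, and tumor 1 was the lowest of 4 YAP1on tumors in 35 of 41. Counts are given below with and without them.

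By group mean, 27 of 41 members were highest in FAH liver, 8 in day 6 tumors, 3 in hbHep and 3 in YAP1on tumors. The lowest mean fell in YAP1on tumors for 26 members, in hbHep for 11, in day 6 tumors for 2 and in FAH liver for 2. The members together held 1.8 to 2.64% of all signal in hbHep, 3.25 to 4.35% in day 6 tumors, 2.46 to 4.15% in YAP1on tumors and 2.67 to 2.93% in FAH liver. The share was lowest in hbHep mouse 2, and day 6 tumors lay above hbHep and FAH liver without overlap.

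**Figure D1:**
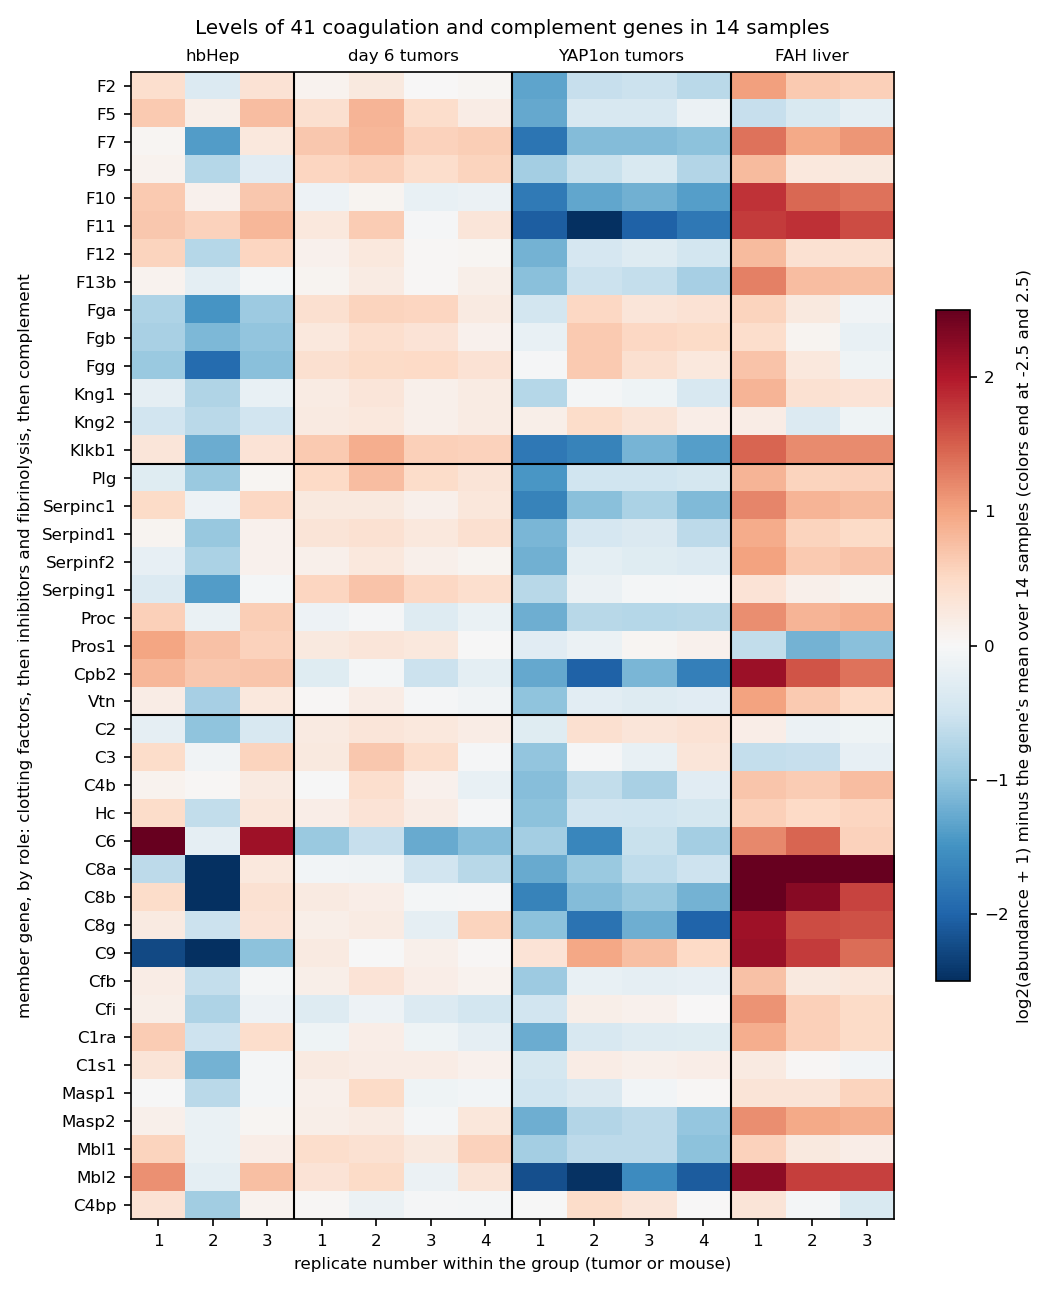
Log2(abundance + 1) of each of the 41 members (rows, by role) in each of the 14 samples (columns), minus that gene's mean over the samples. YAP1on tumors are blue in most rows but red or pale in the fibrinogen rows, hbHep are blue in the fibrinogen and C9 rows, and hbHep mouse 2 is bluer than mice 1 and 3 in nearly every row.

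Members that lie side by side in the genome were among those that stood out. Within 100 kb of one another on GRCm38.p6 lay Fgg, Fga and Fgb on chromosome 3, C8b and C8a on chromosome 4, C1ra and C1s1 on chromosome 6, F7 and F10 and also F11 and Klkb1 on chromosome 8, Kng2 and Kng1 on chromosome 16, and Cfb and C2 on chromosome 17. The fibrinogen genes spanned chr3:83007724-83049863. The C8 pair spanned chr4:104766317-104876487. The sequences below are the 250 bases upstream of an annotated gene start (GRCm38.p6). They are shown for the fibrinogen chains, which fell together in hbHep, and for C8a, C8b and C9. The last 3 had the largest falls in hbHep relative to FAH liver. For C8a the start used lies inside the gene span given above, so part of its sequence is within that span. Capitals mark a C/EBP-like motif (TTNNGCAA) or a STAT motif (TTCNNNGAA) on either strand; no 2 of the marked stretches overlap.
Fga, plus strand, chr3:83025903-83026152: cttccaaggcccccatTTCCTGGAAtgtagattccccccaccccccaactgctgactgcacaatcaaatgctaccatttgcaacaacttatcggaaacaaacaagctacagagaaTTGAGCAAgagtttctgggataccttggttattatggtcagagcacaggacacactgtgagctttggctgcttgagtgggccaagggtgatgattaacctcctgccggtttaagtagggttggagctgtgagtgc
Fgb, minus strand, chr3:83049864-83050113: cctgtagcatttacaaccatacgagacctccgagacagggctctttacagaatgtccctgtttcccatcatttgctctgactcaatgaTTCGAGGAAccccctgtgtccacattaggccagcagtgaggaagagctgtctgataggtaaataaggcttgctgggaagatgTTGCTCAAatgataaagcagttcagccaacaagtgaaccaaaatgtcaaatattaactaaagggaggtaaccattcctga
Fgg, plus strand, chr3:83007474-83007723: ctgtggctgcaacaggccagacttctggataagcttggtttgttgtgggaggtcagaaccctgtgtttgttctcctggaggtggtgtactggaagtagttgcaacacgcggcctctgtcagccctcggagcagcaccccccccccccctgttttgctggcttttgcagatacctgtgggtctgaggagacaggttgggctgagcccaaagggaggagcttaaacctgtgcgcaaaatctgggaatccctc
C8a, minus strand, chr4:104876399-104876648: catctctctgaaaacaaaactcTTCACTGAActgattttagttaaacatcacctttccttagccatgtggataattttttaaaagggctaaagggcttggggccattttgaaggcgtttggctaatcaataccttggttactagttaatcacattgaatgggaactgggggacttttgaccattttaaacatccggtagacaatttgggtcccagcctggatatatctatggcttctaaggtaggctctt
C8b, plus strand, chr4:104766067-104766316: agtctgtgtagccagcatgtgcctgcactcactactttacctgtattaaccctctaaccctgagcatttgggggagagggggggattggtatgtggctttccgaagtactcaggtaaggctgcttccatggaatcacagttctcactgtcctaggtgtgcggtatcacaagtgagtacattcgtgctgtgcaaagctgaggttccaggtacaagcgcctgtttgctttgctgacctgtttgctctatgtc
C9, plus strand, chr15:6445096-6445345: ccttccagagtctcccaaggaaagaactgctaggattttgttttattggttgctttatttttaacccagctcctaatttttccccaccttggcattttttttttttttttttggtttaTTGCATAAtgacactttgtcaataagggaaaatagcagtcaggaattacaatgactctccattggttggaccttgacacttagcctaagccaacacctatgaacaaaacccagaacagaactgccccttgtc

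Promoter sequence was matched for 32 of the 41 members; Proc, Serping1, Plg, Cfi, Kng1, C2, Masp1, Cfb and C4b had no entry. C/EBP proteins are transcription factors active in the liver, STAT factors carry cytokine signals, and TEAD proteins are the DNA-binding partners of YAP1. The C/EBP-like motif was found upstream of 9 of 32 members (28.1%), against 9.56% of 32851 promoters of the same length. The STAT motif was upstream of 6 (18.8%), against 7.02%. A TEAD motif (GGAATG) was upstream of 7 (21.9%), against 12.6%. All motifs were searched on both strands. Fga and Fgb held all of these motifs, Fgg and C8b none, C8a the STAT motif and C9 the C/EBP-like motif, and the STAT and TEAD matches of Fga overlapped each other. These matches describe letters only.

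The gene start lay inside a deposited ATAC interval for 5 of 32 members in YAP1on tumor, 26 at day 14, 28 at day 33, 30 at day 64 and 28 in WT liver. Over all genes with a promoter the shares were 14.7%, 37.9%, 39.3%, 38.4% and 35.7% in the same order, against 15.6%, 81.2%, 87.5%, 93.8% and 87.5% of members. The 5 members covered in YAP1on tumor were F9, F12, Fga, C8b and C1s1. The YAP1on intervals averaged 23.7 bases wide, against 66.4 to 76.6 bases in the other lists, so the lists are not on the same footing. Within 500 bases of the start, an interval was found for 30 of 32 members in YAP1on tumor and for all 32 in each of the other 4 libraries, against 53.7% of all genes in YAP1on tumor and 53.1 to 55.2% in the other libraries. With 1 library per condition there was no test.

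At 6 days after YAP1 was turned off, the clotting proteases F7, F9, F10, F11 and Klkb1, antithrombin and the mannan-binding lectins Mbl1 and Mbl2 were higher than in YAP1on tumors, while the fibrinogen chains did not pass the test. In day 6 tumors 21 of 41 members rose relative to YAP1on tumors, where 12.8% of all tested genes rose, and 0 fell by limma, where 10.9% of all tested genes fell; at an unadjusted p under 0.05 the count lower was also 0. In either direction 23.7% of all tested genes passed. The median log2 fold change of the members was 0.71, against 0.02 over all genes tested. By role, 8 of 14 clotting factors, 7 of 9 inhibitors and fibrinolysis genes and 6 of 18 complement genes rose. Without YAP1on tumor 1 the count was 19 higher and 0 lower, and without both low samples 23 higher and 0 lower. Without hbHep mouse 2 alone it was 24 higher and 0 lower.

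Factor XI (F11), the protease that activates factor IX, had the largest rise. Its abundance was 1032, 962.9 and 1144 in hbHep, 774.8, 1006, 632.4 and 793.8 in day 6 tumors, 154.1, 106.9, 159.2 and 187.2 in YAP1on tumors, and 2164, 2282 and 1998 in FAH liver. Every day 6 tumor was above every YAP1on tumor, and FAH liver lay above all other samples. The log2 fold change of day 6 over YAP1on tumors was 2.40 (SE 0.16, adjusted p = 9.91e-08, limma).

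Plasma prekallikrein (Klkb1), the contact-phase protease whose gene neighbours F11, followed the same order in the tumors. It stood at 6001, 2044 and 6138 in hbHep, 7702, 9143, 7383 and 7296 in day 6 tumors, 1416, 1526, 2181 and 1880 in YAP1on tumors, and 13320, 11030 and 11080 in FAH liver. The tumor groups were apart, and hbHep mouse 2 lay within the YAP1on range. Klkb1 rose by 2.18 (SE 0.27, adjusted p = 2.6e-05) on the log2 scale in day 6 over YAP1on tumors.

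Mannan-binding lectin 2 (Mbl2), which recognizes microbial sugars, had abundances of 12220, 4683 and 9306 in hbHep, 6998, 7748, 5031 and 6974 in day 6 tumors, 1219, 1006, 1864 and 1320 in YAP1on tumors, and 26160, 18350 and 18270 in FAH liver. All YAP1on tumors were below all samples of the other groups. The log2 fold change of day 6 over YAP1on tumors was 2.32 (SE 0.26, adjusted p = 1.02e-05). Its paralog Mbl1 rose by 1.20 (adjusted p = 3.26e-05), and the ratio of Mbl2 to Mbl1 was 1.52 to 2.41 in hbHep, 1.24 to 1.73 in day 6 tumors, 0.462 to 0.856 in YAP1on tumors and 4.49 to 5.09 in FAH liver.

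Of the other clotting factors, F7, F10, F9, F5, F2 and F13b rose by 1.93, 1.31, 1.17, 1.03, 0.87 and 0.86 on the log2 scale in day 6 over YAP1on tumors. The vitamin K-dependent proteases F2, F7, F9 and F10 thus all passed the test. F12, the contact-phase starter, had a log2 fold change of 0.71 with an adjusted p of 0.0521. Fibrinogen chains and kininogens, the carriers of bradykinin, did not pass: Fga, Fgb and Fgg had log2 fold changes of 0.25, -0.08 and 0.12, and Kng1 and Kng2 had 0.53 and -0.07.

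Among inhibitors and fibrinolysis genes, antithrombin (Serpinc1) rose by 1.37, the fibrinolysis inhibitor Cpb2 by 1.26, plasminogen (Plg) by 1.23 and heparin cofactor II (Serpind1) by 0.99 on the log2 scale in day 6 over YAP1on tumors. The C1 inhibitor Serping1, the plasmin inhibitor Serpinf2 and protein C (Proc) rose by 0.78, 0.68 and 0.67. The adjusted p of Serpinf2 was 0.0653 to 0.105 without any 1 of the day 6 tumors or without YAP1on tumor 1, and that of Serping1 was 0.0511 to 0.0866 without day 6 tumor 1, 2 or 3 or YAP1on tumor 1. Vitronectin (Vtn), which stabilizes the plasminogen activator inhibitor, and protein S (Pros1) had 0.49 and 0.27 and did not pass. In complement, C8g rose by 1.69, the lectin-pathway protease Masp2 by 1.04, and C4b and Hc by 0.78 each. C3, Cfb, C8b, C8a, C1ra, Masp1, C1s1, C2, C6, Cfi, C4bp and C9 did not pass, with log2 fold changes between -0.54 (C9) and 1.30 (C8b). C8b, at 2222 to 2703 in day 6 tumors and 723.6 to 1186 in YAP1on tumors, did not overlap. Neither did C9, at 1535 to 1788 and 1944 to 3011, nor Cfb and C1ra. The model estimated spread over all 4 groups, and hbHep mouse 2 was far below mice 1 and 3 in C8b.

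Scaling bears on these counts. Under equal library totals the median of all genes shifted to -0.26 in day 6 over YAP1on tumors, -0.46 in hbHep over YAP1on tumors, -0.17 in hbHep over day 6 tumors, 0.54 in hbHep over FAH liver and 1.03 in YAP1on tumors over FAH liver. In day 6 over YAP1on tumors the count was 16 higher and 3 lower with equal totals, and 17 higher and 4 lower with quantile normalization. Of 18266 genes 1145 were higher and 4561 lower with equal totals. With quantile normalization 2445 of 17944 genes were higher and 2362 lower. Fgb was among the members lower with quantile normalization, at -0.90 (limma, adjusted p = 0.0165). The rises of F7, F9, F10, F11, F13b, Klkb1, Plg, Serpinc1, Serpind1, Cpb2, C8g, Masp2, Mbl1 and Mbl2, 14 of 21, passed under each of the 3 other scalings.

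Markers of cell types moved with the tumor groups. The summed abundance of 10 hepatocyte markers was 771500 to 1011000 in day 6 tumors, against 301300 to 516200 in YAP1on tumors, and 7 of 10 rose. Summed macrophage markers were 12140 to 15640 in day 6 tumors, against 21350 to 31130 in YAP1on tumors, with 3 of 10 lower. Summed cholangiocyte markers were 4510 to 9531 in day 6 tumors, against 30960 to 40860 in YAP1on tumors, with 6 of 10 lower and 4 not passing. Most of the YAP1on sum was Spp1, at 27500 to 35980, against 2193 to 6535 in day 6 tumors. Of 10 endothelial markers 4 rose, and of 10 stellate and fibroblast markers 4 fell. No marker of these lists was at 0 in all samples. YAP1on tumor 1 had the lowest hepatocyte sum and the highest macrophage sum of its group. Of the macrophage markers only Lyz2, at 18420 against 8200 to 11540 in the other YAP1on tumors, and Timd4 were highest there. Csf1r was lowest in tumor 1, at 2948 against 3611 to 4377. The part of the marker lists in the result was not tested. In these bulk samples fewer cells of a type and less RNA per cell cannot be told apart.

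**Figure D2:**
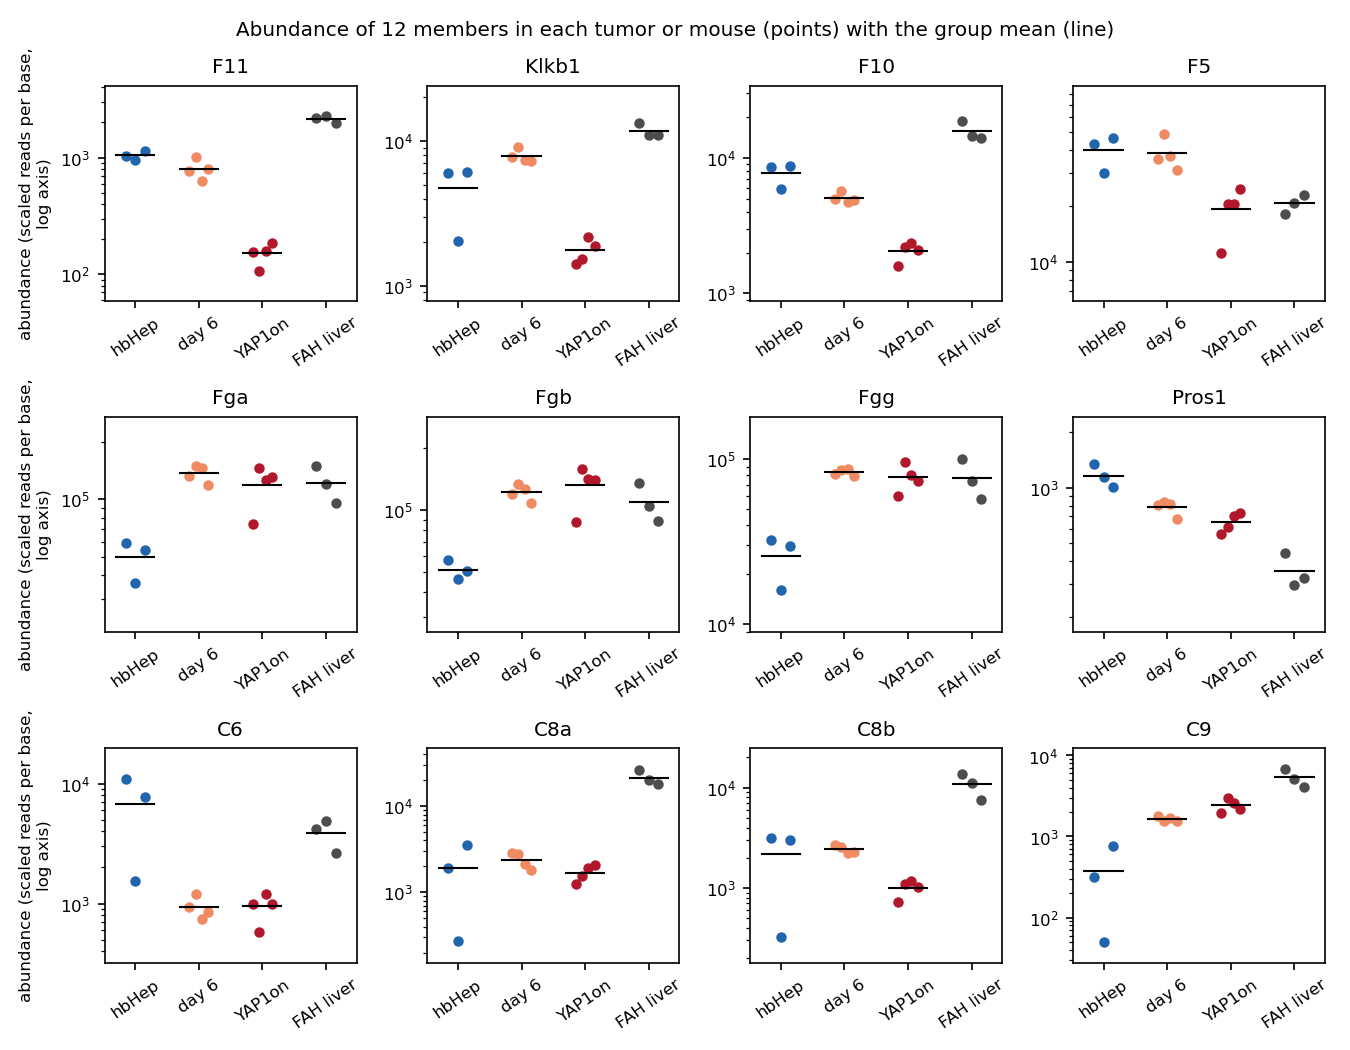
Abundance (scaled reads per base, log axis) of 12 members in each hbHep mouse, day 6 tumor, YAP1on tumor and FAH mouse (points), with the group mean as a line. F11 is lowest in YAP1on tumors, the fibrinogen chains are lowest in hbHep, C6 is high in 2 of 3 hbHep mice, and C9 in hbHep lies between 49.78 and 757.4, under every other sample.

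hbHep livers had higher F10, F11 and Klkb1 and lower Fga, Fgb and Fgg than YAP1on tumors. In hbHep, 20 of 41 members rose relative to YAP1on tumors, where 28.7% of all tested genes rose, and 6 fell, where 26.5% of all tested genes fell (either direction, 55.2%). The members' median log2 fold change was 0.56, against -0.03 over all genes tested. Among clotting factors 8 rose and 4 fell, among inhibitors and fibrinolysis genes 4 rose and 0 fell, and among complement genes 8 rose and 2 fell. Without YAP1on tumor 1 the count was 16 higher and 6 lower, and without hbHep mouse 2, or without both low samples, 24 higher and 6 lower.

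F11 rose by 2.80 (SE 0.18, adjusted p = 7.84e-09) and Mbl2 by 2.62 (SE 0.28, adjusted p = 1.79e-06) on the log2 scale in hbHep over YAP1on tumors, with no overlap between the groups' values given above. Complement C6, the first-joining component after C5 cleavage in the membrane pore, had abundances of 10980, 1541 and 7771 in hbHep, 937.9, 1201, 745 and 859.2 in day 6 tumors, 999, 579, 1212 and 995.9 in YAP1on tumors, and 4142, 4909 and 2662 in FAH liver. All hbHep mice were above all tumors, while hbHep and FAH liver overlapped because mouse 2 was low. C6 was higher by 2.47 (SE 0.48, adjusted p = 0.000496) in hbHep over YAP1on tumors, and by 3.34 without hbHep mouse 2.

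C9, the subunit that polymerizes into the pore, went the opposite way. Its abundance was 319.4, 49.78 and 757.4 in hbHep, 1788, 1535, 1684 and 1568 in day 6 tumors, 1944, 3011, 2579 and 2171 in YAP1on tumors, and 6868, 5161 and 4056 in FAH liver. Every hbHep mouse was below every other sample, with a wide spread between the mice. The log2 fold change of hbHep over YAP1on tumors was -3.37 (SE 0.58, adjusted p = 0.000161), and -2.28 without hbHep mouse 2. C9 was also the member that differed most between technical libraries of 1 mouse: 470.8 and 1044 in mouse 3, against a median absolute log2 difference over members of 0.09 in that mouse.

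The fibrinogen chains fell together in hbHep. Fga, the alpha chain, had 59190, 36320 and 54150 in hbHep, 133200, 150000, 146500 and 119200 in day 6 tumors, 73860, 145300, 125400 and 130100 in YAP1on tumors, and 148600, 120700 and 95470 in FAH liver. Fgb, the beta chain, had 57340, 45980 and 50630 in hbHep, 119500, 133900, 127300 and 108500 in day 6 tumors, 87450, 158000, 142600 and 139700 in YAP1on tumors, and 135400, 104400 and 88070 in FAH liver. Fgg, the gamma chain, had 32180, 16190 and 29600 in hbHep, 81360, 86010, 86700 and 78970 in day 6 tumors, 59760, 95910, 80590 and 74140 in YAP1on tumors, and 100000, 74030 and 57130 in FAH liver. For each chain all hbHep values were below all values of the other 3 groups on the reported scaling. Against FAH liver, Fga and Fgb did not pass with quantile normalization (-0.42 and -0.16 on the log2 scale, limma adjusted p = 0.259 and 0.704). With equal library totals Fgb did not pass there (-0.52, adjusted p = 0.0961), while Fga did (-0.74, adjusted p = 0.0377). Fgg passed under each scaling. In hbHep over YAP1on tumors the log2 fold changes were -1.24 (SE 0.31, adjusted p = 0.0034) for Fga, -1.33 (SE 0.28, adjusted p = 0.00101) for Fgb and -1.62 (SE 0.28, adjusted p = 0.000196) for Fgg.

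The chains did not fall by the same amount in each liver. The per-base ratio of Fgg to Fgb was 0.561, 0.352 and 0.585 in hbHep, 0.643 to 0.728 in day 6 tumors, 0.531 to 0.683 in YAP1on tumors and 0.649 to 0.739 in FAH liver. The ratio of Fga to Fgb was 1.03, 0.79 and 1.07 in hbHep, 1.1 to 1.15 in day 6 tumors, 0.845 to 0.932 in YAP1on tumors and 1.08 to 1.16 in FAH liver. Both ratios were lowest in hbHep mouse 2, and in mice 1 and 3 they overlapped or neared those of other groups.

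The rest of the members in hbHep over YAP1on tumors divided by role as follows. F10, Klkb1, F5, F2, F7, F12 and F13b rose by 1.90, 1.29, 1.08, 0.92, 0.89, 0.73 and 0.68, while F9 had 0.33, Kng1 had -0.07 and Kng2 fell by 0.82 on the log2 scale. Cpb2, Serpinc1, Proc and Pros1 rose by 2.27, 1.43, 1.18 and 0.83, while Plg, Serpind1, Serpinf2, Serping1 and Vtn did not pass. C8g, Mbl1, Masp2, C4b, C1ra and Hc rose by 1.54, 0.99, 0.90, 0.80, 0.75 and 0.65, and C2 fell by 0.73. C3, Cfb, Cfi, C8a, C8b, C1s1, Masp1 and C4bp did not pass. The rises of F7, F12 and C1ra rested on single samples: without hbHep mouse 1, hbHep mouse 3 or YAP1on tumor 1 the adjusted p was 0.067 to 0.132 for F7, 0.101 to 0.163 for F12 and 0.0737 to 0.134 for C1ra. With equal library totals 14 members were higher and 11 lower, where 2902 of 18266 genes were higher and 8268 lower. With quantile normalization 14 were higher and 14 lower, where 4957 of 17944 genes were higher and 4895 lower. The median of the inhibitors and fibrinolysis genes, 0.39 as reported against -0.03 over all genes, changed sign in both. It was -0.03 with equal totals, against -0.46 over all genes, and -0.34 with quantile normalization, against -0.03 over all genes. The falls of Fga, Fgb, Fgg, Kng2, C2 and C9 passed under each scaling, as did 12 of 20 rises, among them F10, F11, Klkb1, Cpb2, C6 and Mbl2. Summed hepatocyte markers were 777600 to 1063000 in hbHep, against 301300 to 516200 in YAP1on tumors, with 6 of 10 higher. Summed cholangiocyte markers were 2463 to 2667 in hbHep, against 30960 to 40860 in YAP1on tumors, with 7 of 10 lower. Most of the YAP1on sum was Spp1, at 27500 to 35980, against 815.9 to 1259 in hbHep. Macrophage markers summed to 6943 to 18620 in hbHep, against 21350 to 31130 in YAP1on tumors, and 5 of 10 fell, as did 5 of 10 stellate and fibroblast markers. The part of these markers in the result was not tested.

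**Figure D3:**
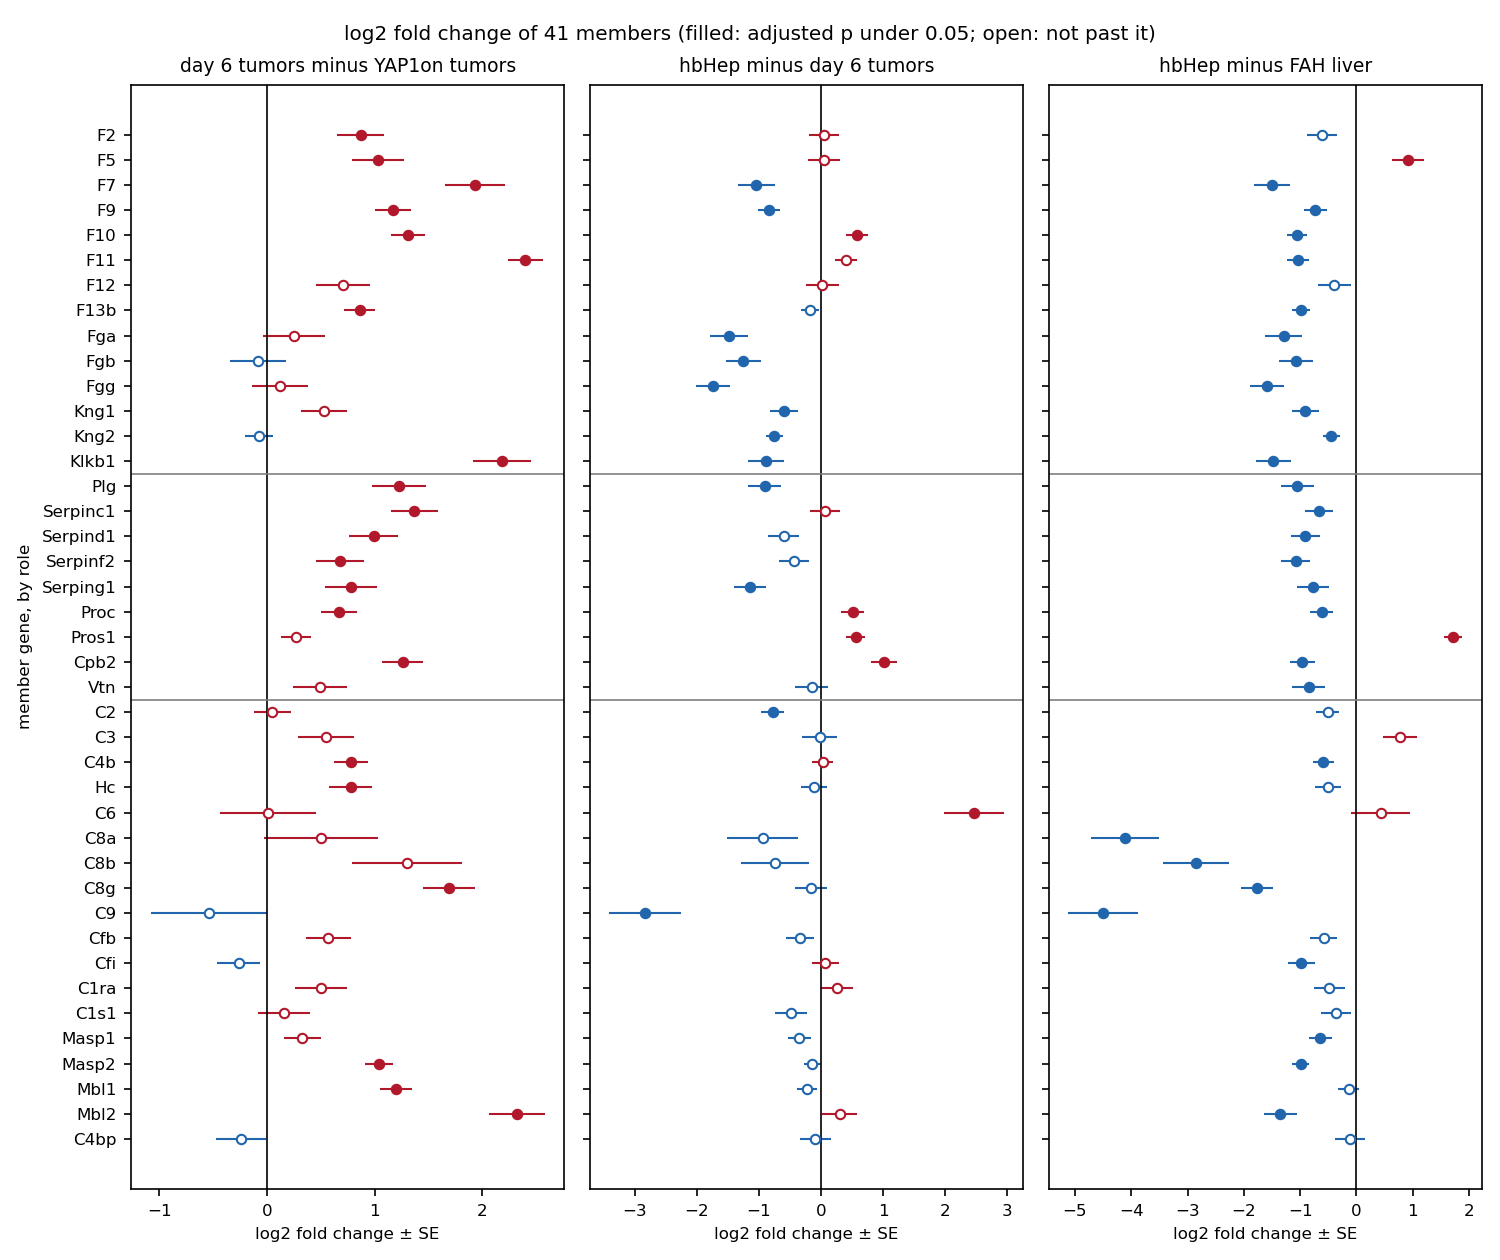
Log2 fold change ± standard error (limma) of each of the 41 members (rows, by role) in day 6 tumors over YAP1on tumors, hbHep over day 6 tumors and hbHep over FAH liver. Filled points passed an adjusted p of 0.05. In the left panel 21 members lie filled on the right, in the middle panel 5 are filled on the right and 12 on the left, and in the right panel 28 are filled on the left and 2 on the right.

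Set against day 6 tumors, hbHep had lower fibrinogen chains and C9, and higher C6 and Cpb2. In hbHep 5 of 41 members rose relative to day 6 tumors, where 24.1% of all tested genes rose, and 12 fell, where 21.7% of all tested genes fell (either direction, 45.8%). The members' median log2 fold change was -0.18, against -0.02 over all genes tested, and it was 0.07 without hbHep mouse 2. Clotting factors had 1 higher and 8 lower, inhibitors and fibrinolysis genes 3 and 2, and complement genes 1 and 2. Without YAP1on tumor 1 the count was 5 higher and 13 lower, without hbHep mouse 2 it was 7 higher and 9 lower, and without both low samples 8 higher and 10 lower.

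C6 was higher by 2.46 (SE 0.48, adjusted p = 0.000747) on the log2 scale in hbHep over day 6 tumors, and by 3.32 without hbHep mouse 2. Cpb2, the carboxypeptidase that trims fibrin and slows its dissolution, had abundances of 5334, 4778 and 4814 in hbHep, 2422, 2892, 2056 and 2524 in day 6 tumors, 1237, 735, 1351 and 906.8 in YAP1on tumors, and 13160, 8885 and 7658 in FAH liver. The 4 groups did not overlap, and hbHep mice 1 to 3 were close to one another. Cpb2 rose by 1.02 (SE 0.21, adjusted p = 0.00113) in hbHep over day 6 tumors.

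F10, the protease that converts prothrombin, had 8583, 5862 and 8667 in hbHep, 4998, 5673, 4752 and 4883 in day 6 tumors, 1586, 2195, 2357 and 2097 in YAP1on tumors, and 18920, 14600 and 13960 in FAH liver. The groups did not overlap, although hbHep mouse 2 lay just above day 6 tumor 2. The rise in hbHep over day 6 tumors was 0.58 (SE 0.17, adjusted p = 0.0122) on the log2 scale, with adjusted p = 0.0577 without hbHep mouse 1 and 0.0586 without hbHep mouse 3. Pros1 and Proc, the protein S and protein C genes, rose by 0.56 and 0.51. The adjusted p of Proc was 0.149 without hbHep mouse 1, 0.154 without hbHep mouse 3 and 0.0603 to 0.0877 without day 6 tumor 1, 3 or 4, and its groups overlapped.

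The largest falls in hbHep against day 6 tumors were in C9, at -2.83 (SE 0.58, adjusted p = 0.00104), Fgg, at -1.74 (SE 0.28, adjusted p = 0.000167), and Fga, at -1.48 (SE 0.31, adjusted p = 0.00123). C9 was at -1.74 without hbHep mouse 2. Fgb, F7, Klkb1, F9, Kng2 and Kng1 fell, with log2 fold changes of -1.25, -1.04, -0.89, -0.84, -0.75 and -0.60, Serping1 and Plg with -1.14 and -0.91, and C2 with -0.78. Without hbHep mouse 2 the adjusted p was 0.162 for Kng1, 0.0945 for Klkb1 and 0.0739 for Plg. Kng1 also missed the threshold without hbHep mouse 1, any 1 of the day 6 tumors or YAP1on tumor 4 (adjusted p 0.0501 to 0.0885), and Klkb1 without day 6 tumor 2 (adjusted p 0.0517). The other 24 members did not pass, with C8a at -0.94 and C8b at -0.74 the lowest among them and F11 at 0.40 the highest. With quantile normalization 4 members were higher and 20 lower, where 4084 of 17944 genes were higher and 4202 lower. Under each scaling 4 of 5 rises and 11 of 12 falls passed, and Proc and Kng1 were the exceptions. Of the marker lists, 4 hepatocyte markers rose and 2 fell in hbHep over day 6 tumors, 7 of 10 stellate and fibroblast, 5 of 10 cholangiocyte and 4 of 10 endothelial markers fell, and 2 macrophage markers rose and 3 fell. Summed stellate and fibroblast markers were 4815 to 9282 in hbHep, against 9308 to 14780 in day 6 tumors. Their part in the result was not tested.

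C9, C8a and C8b had the largest falls in hbHep relative to FAH liver, while C6, of the same pore, did not pass the test. In hbHep 2 of 41 members were higher than in FAH liver, where 20.0% of all tested genes were higher, and 28 were lower, where 17.0% of all tested genes were lower (either direction, 37.0%). The members' median log2 fold change was -0.85, against 0 over all genes tested. Clotting factors had 1 higher and 11 lower, inhibitors and fibrinolysis genes 1 and 8, and complement genes 0 and 9. Without YAP1on tumor 1 the count was 3 higher and 31 lower, without hbHep mouse 2 it was 4 higher and 20 lower, and without both low samples 4 higher and 24 lower.

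Pros1, the protein S gene, had abundances of 1340, 1136 and 1013 in hbHep, 809.2, 839.7, 813.5 and 674.4 in day 6 tumors, 561.1, 616.1, 707.3 and 729.5 in YAP1on tumors, and 442.8, 299.4 and 326.5 in FAH liver. All hbHep mice were above all other samples, and all FAH livers below. The log2 fold change of hbHep over FAH liver was 1.72 (SE 0.16, adjusted p = 1.37e-06). F5, the factor V cofactor of F10, had 42850, 30050 and 46280 in hbHep, 35880, 48990, 37040 and 31130 in day 6 tumors, 11140, 20540, 20480 and 24560 in YAP1on tumors, and 18160, 20860 and 23020 in FAH liver. hbHep and FAH liver did not overlap, and hbHep and day 6 tumors did. F5 was higher by 0.92 (SE 0.28, adjusted p = 0.0172) in hbHep over FAH liver, with adjusted p = 0.0541 without hbHep mouse 1, 0.065 without hbHep mouse 3 and 0.0601 without FAH liver 1.

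In the membrane pore, C8a had abundances of 1893, 274.2 and 3550 in hbHep, 2839, 2803, 2119 and 1826 in day 6 tumors, 1248, 1551, 1923 and 2070 in YAP1on tumors, and 26330, 20220 and 17870 in FAH liver. Its partner C8b had 3158, 323 and 3003 in hbHep, 2703, 2568, 2222 and 2263 in day 6 tumors, 723.6, 1087, 1186 and 1019 in YAP1on tumors, and 13810, 11080 and 7465 in FAH liver. FAH liver was above all other samples for both genes, and hbHep mouse 2 was below all of them. In hbHep over FAH liver the log2 fold changes were -4.11 (SE 0.61, adjusted p = 9.16e-05) for C8a, -2.85 (SE 0.59, adjusted p = 0.00158) for C8b and -4.50 (SE 0.62, adjusted p = 4.79e-05) for C9. Without hbHep mouse 2 they were -3.03, -1.76 and -3.41, with adjusted p of 1.96e-06, 4.68e-05 and 1e-06.

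C8g, the lipocalin-like gamma chain of C8, fell by 1.77 (SE 0.28, adjusted p = 0.000171) and varied less between the mice, with 3067, 1816 and 3340 in hbHep against 11400, 8156 and 7892 in FAH liver. These groups did not overlap. C6, by contrast, had a log2 fold change of 0.43 (SE 0.52, adjusted p = 0.555) in hbHep over FAH liver, and 1.29 (adjusted p = 0.00468) without hbHep mouse 2. The per-base ratio of C9 to C6 was 0.0291, 0.0323 and 0.0975 in hbHep, 1.28 to 2.26 in day 6 tumors, 1.95 to 5.2 in YAP1on tumors and 1.05 to 1.66 in FAH liver. It was below that of every other sample in each hbHep mouse, mouse 2 included.

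Among the other members in hbHep over FAH liver, Fgg, F7, Klkb1, Fga, Fgb, F10, F11, F13b, Kng1, F9 and Kng2 fell, with log2 fold changes of -1.59, -1.50, -1.48, -1.29, -1.07, -1.05, -1.04, -0.99, -0.91, -0.73 and -0.45. F2 and F12 had -0.61 and -0.39 and did not pass. Serpinf2, Plg, Cpb2, Serpind1, Vtn, Serping1, Serpinc1 and Proc fell, with log2 fold changes of -1.08, -1.05, -0.96, -0.91, -0.85, -0.77, -0.67 and -0.62. Mbl2, Masp2, Cfi, Masp1 and C4b fell, with log2 fold changes of -1.35, -0.99, -0.98, -0.64 and -0.59. C3, Hc, Cfb, C2, C1ra, C1s1, Mbl1 and C4bp did not pass, with C3, the hub of complement, at 0.77 (adjusted p = 0.0601) the highest. Several falls rested on single samples. Without hbHep mouse 2 the adjusted p was 0.0812 for Kng2, 0.0564 for C4b, 0.0981 for Masp1, 0.111 for Proc, 0.0596 for Serpind1, 0.136 for Vtn, 0.187 for Serping1 and 0.174 for Serpinc1. Each of these also missed the threshold without at least 1 of the FAH livers, and Serpinc1, with an adjusted p of 0.0485 over all samples, without most single samples. With equal library totals 4 members were higher and 12 lower (median -0.30, against 0.54 over all genes). With quantile normalization the counts were 3 and 12 (median -0.33, against -0.03 over all genes). Of 18266 genes 8584 were higher and 791 lower with equal totals. With quantile normalization 3283 of 17944 genes were higher and 2940 lower. The falls of F7, F10, F13b, Fgg, Klkb1, C8a, C8b, C8g, C9, Masp2 and Mbl2, 11 of 28, passed under each scaling, as did the rises of F5 and Pros1, while Kng2 and Serpinc1 changed sign in at least 1 of them. Summed hepatocyte markers were 777600 to 1063000 in hbHep, against 1537000 to 1795000 in FAH liver, with 4 of 10 lower. Macrophage markers summed to 6943 to 18620 in hbHep, against 3801 to 6736 in FAH liver, with 6 of 10 higher and 1 lower. Cholangiocyte markers summed to 2463 to 2667 in hbHep, against 1257 to 1342 in FAH liver, with 4 of 10 higher. The part of these markers in the result was not tested.

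Mbl2, F11 and C8a had the largest falls in YAP1on tumors relative to FAH liver. The fibrinogen chains did not pass the test under the reported scaling, but were higher with quantile normalization and with equal library totals, as were several other members. In YAP1on tumors 2 of 41 members were higher than in FAH liver, where 34.6% of all tested genes were higher, and 29 were lower, where 33.3% of all tested genes were lower (either direction, 68.0%). The members' median log2 fold change was -1.19, against 0.05 over all genes tested. Clotting factors had 1 higher and 9 lower, inhibitors and fibrinolysis genes 1 and 7, and complement genes 0 and 13. Without YAP1on tumor 1 the count was 3 higher and 29 lower, and without both low samples 4 higher and 30 lower. Without hbHep mouse 2 alone it was 2 higher and 31 lower.

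The log2 fold changes of YAP1on tumors over FAH liver were -3.97 (SE 0.28, adjusted p = 9.58e-09) for Mbl2, -3.84 (SE 0.18, adjusted p = 1.34e-10) for F11 and -3.67 (SE 0.57, adjusted p = 3.61e-05) for C8a, with no overlap for any of them. C8b, C8g, Cpb2, F10, Klkb1, F7, Serpinc1 and C6 fell, with log2 fold changes of -3.40, -3.30, -3.23, -2.94, -2.77, -2.40, -2.10 and -2.05. Pros1 rose by 0.89 (SE 0.15, adjusted p = 8.81e-05). Kng2, the second kininogen gene of the mouse, had 5297, 4636 and 5365 in hbHep, 8629, 8878, 8145 and 8551 in day 6 tumors, 8194, 10240, 9347 and 8341 in YAP1on tumors, and 8450, 5829 and 6861 in FAH liver. YAP1on tumors and FAH liver overlapped at FAH liver 1, and hbHep lay below all others. Kng2 had 0.37 (SE 0.14, adjusted p = 0.0279) in YAP1on tumors over FAH liver, but an adjusted p of 0.161 without FAH liver 2, 0.0681 without FAH liver 3, 0.085 without YAP1on tumor 2 and 0.0578 without YAP1on tumor 3.

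Fga, Fgb and Fgg had log2 fold changes of -0.06, 0.26 and 0.03 in YAP1on tumors over FAH liver and did not pass, nor did F5, Serping1, C2, C3, C9, C1s1 and C4bp. Proc, Masp2, F13b, F2, C4b, Plg, Serpinf2, Serpind1, C1ra, Vtn, Hc, Mbl1, F12, F9, Kng1, Cfb, Cfi and Masp1 fell, with log2 fold changes between -1.89 (Masp2) and -0.62 (Masp1). These counts moved with scaling. With quantile normalization 14 members were higher and 16 lower (median -0.11, against 0.01 over all genes). With equal library totals the counts were 11 and 15 (median -0.21, against 1.03 over all genes). Of 17944 genes 5913 were higher and 5877 lower with quantile normalization. With equal totals 12441 of 18266 genes were higher and 2109 lower. The fibrinogen chains passed as higher in YAP1on tumors in both of these scalings, as did F5, Serping1, C2, C3, C1s1, C4bp, Kng2 and Pros1. With quantile normalization Fga, Fgb and Fgg stood at 1.31, 1.91 and 1.32 (limma, adjusted p = 0.000412, 2.46e-05 and 5.89e-05). With equal library totals they stood at 0.92, 1.24 and 1.01 (limma, adjusted p = 0.00439, 0.000181 and 0.000919), near the median of all genes, 1.03. Fga thereby changed sign, and Kng1, Vtn, Cfb, Cfi and Masp1 changed sign in at least 1 scaling. The falls of 14 of 29 members, among them F7, F10, F11, Klkb1, Serpinc1, Proc, Cpb2, C6, C8a, C8b, C8g and Mbl2, passed under each scaling, as did the rise of Pros1. Summed hepatocyte markers were lower in YAP1on tumors than in FAH liver (301300 to 516200, against 1537000 to 1795000), with 9 of 10 lower, and all 10 cholangiocyte, 8 of 10 macrophage and 6 of 10 stellate and fibroblast markers were higher; their part in the result was not tested.

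**Figure D4:**
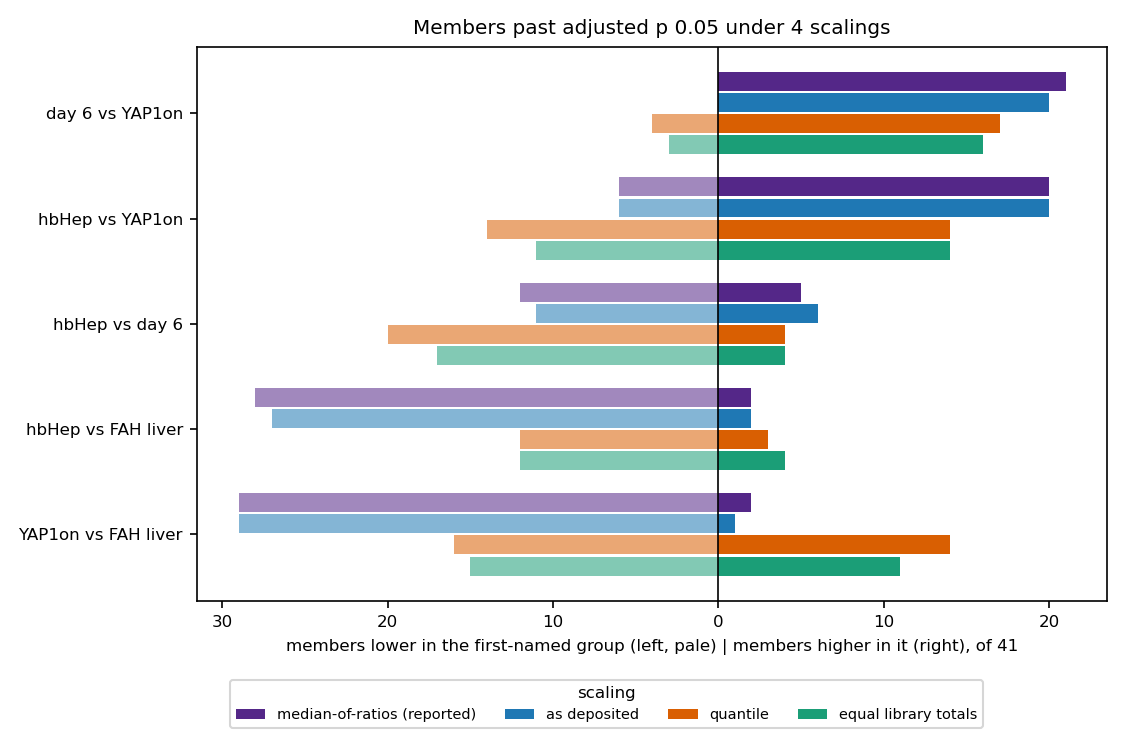
Number of the 41 members past an adjusted p of 0.05 in each comparison under 4 scalings, with members higher in the first-named group to the right and lower ones, in pale color, to the left. For YAP1on tumors against FAH liver the bars show 2 higher and 29 lower as reported, and 11 higher and 15 lower with equal library totals. The median log2 fold change of all genes in that comparison was 1.03 with equal totals.

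Hc encodes complement C5, and FVB mice carry a loss-of-function allele of it, so it was followed in each sample. Its abundance was 3293, 1558 and 2934 in hbHep, 2680, 3050, 2733 and 2354 in day 6 tumors, 1184, 1715, 1706 and 1761 in YAP1on tumors, and 3627, 3375 and 3467 in FAH liver. No sample was near 0, and hbHep mouse 2 lay within the YAP1on range. The log2 fold change was 0.78 (adjusted p = 0.00854) in day 6 over YAP1on tumors, 0.65 (adjusted p = 0.0163) in hbHep over YAP1on tumors, -0.12 (adjusted p = 0.651) in hbHep over day 6 tumors, -0.50 (adjusted p = 0.0969) in hbHep over FAH liver and -1.15 (adjusted p = 0.000182) in YAP1on tumors over FAH liver. In hbHep over YAP1on tumors the adjusted p was 0.104 without hbHep mouse 1, 0.0785 without hbHep mouse 3 and 0.0513 without YAP1on tumor 1. In hbHep over FAH liver the limma adjusted p was 0.0294 without hbHep mouse 1. With equal library totals the log2 fold change there was 0.06, where the median of all genes was 0.54. With equal totals Hc also missed the threshold in day 6 over YAP1on tumors (0.50, limma adjusted p = 0.0594). So it did in hbHep over YAP1on tumors (0.23, limma adjusted p = 0.344, median of all genes -0.46) and YAP1on tumors over FAH liver (-0.17, adjusted p = 0.449, median of all genes 1.03). With quantile normalization their adjusted p-values were 0.0147, 0.249 and 0.0293. The allele of Hc in each mouse was not tested.

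Genes around the members, from lists of the same pathways, did not all follow them. Several list counts lie near the shares of all tested genes. Those shares, higher and lower, were 12.8% and 10.9% in day 6 over YAP1on tumors, and 28.7% and 26.5% in hbHep over YAP1on tumors. They were 24.1% and 21.7% in hbHep over day 6 tumors, and 20.0% and 17.0% in hbHep over FAH liver. In YAP1on tumors over FAH liver they were 34.6% and 33.3%. Of 20 other clotting genes, which include vessel-wall and fibrinolysis genes, 3 rose and 7 fell in day 6 over YAP1on tumors, with histidine-rich glycoprotein (Hrg) at 1.95 (adjusted p = 1.32e-06) and the protease inhibitor A2m at -3.14 (adjusted p = 0.00294). A2m was low, at 0.3925 to 3.792 in day 6 tumors, against 8.72 to 39.72 in YAP1on tumors. In hbHep over FAH liver 8 rose and 5 fell. The plasminogen activator Plat had the largest rise there, at 330.8, 1435 and 652.8 in hbHep against 35.9, 21.24 and 33.06 in FAH liver, a log2 fold change of 4.48 (SE 0.37, adjusted p = 3.44e-07). The groups did not overlap, and hbHep mouse 2 was the highest. The protein C inhibitor Serpina5 fell most in hbHep over FAH liver, by 1.75 (adjusted p = 0.0245). In hbHep over YAP1on tumors 4 rose and 10 fell (Serpina5 2.92, A2m -3.32), in hbHep over day 6 tumors 4 and 7 (Serpina5 3.63, Plau -1.84), and in YAP1on tumors over FAH liver 10 and 6 (F2rl1 5.52, Serpina5 -4.67).

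Of 6 genes of the vitamin K cycle and factor secretion, 2 rose and 0 fell in day 6 over YAP1on tumors, with the gamma-carboxylase Ggcx at 0.96 (adjusted p = 0.0001). Ggcx had 503.3, 472.6 and 589.6 in hbHep, 552, 603.7, 503.7 and 478.7 in day 6 tumors, 203.1, 291.9, 312.6 and 302 in YAP1on tumors, and 851.3, 769.2 and 816.8 in FAH liver. YAP1on tumors were below and FAH livers above all the other samples. In hbHep over FAH liver 0 rose and 6 fell (Furin -1.17), and in YAP1on tumors over FAH liver 0 rose and 5 fell (Lman1, a cargo receptor for factors V and VIII, -2.20). In hbHep over YAP1on tumors 4 rose and 1 fell (Lman1 1.22, Vkorc1 -0.81), and in hbHep over day 6 tumors 1 and 1 (Lman1 0.54, Vkorc1 -1.22).

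Of 26 other complement genes 24 were tested; Cfd stayed under 10 in each sample and C4a was not matched in the table. In day 6 over YAP1on tumors 4 rose and 1 fell (C1rl 1.13, C1qb -0.72), and in hbHep over FAH liver 7 rose and 7 fell (C1s2 2.46). C1s2 was low, at 4.98 to 18.09 in hbHep against 0 to 4.443 in FAH liver. In hbHep over YAP1on tumors 4 rose and 9 fell (C1rb 3.60, Cd59a -1.91), in hbHep over day 6 tumors 3 and 10 (C1rb 3.35, Cd59a -2.19), and in YAP1on tumors over FAH liver 11 and 8 (C3ar1 3.62). C1rb, C1s2, C4b and Kng2 have close paralogs among which the authors' quantification divides reads by estimation, so their values, and those of C1ra, C1s1 and Kng1, are uncertain.

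Regulators that control plasma protein genes were read from 14 genes. In day 6 over YAP1on tumors 6 rose and 0 fell (Nr0b2 1.90), among them Hnf4a and Cebpa at 0.46 and 0.86. Cebpa, a C/EBP factor of the hepatocyte, had 13680, 7256 and 17220 in hbHep, 5351, 6048, 5362 and 5691 in day 6 tumors, 2317, 3617, 3159 and 3455 in YAP1on tumors, and 30900, 20670 and 21820 in FAH liver. The 4 groups did not overlap. In hbHep over FAH liver 1 rose and 5 fell (Socs3 1.21, Onecut1 -2.11), in hbHep over YAP1on tumors 5 and 3 (Cebpa 1.95, Onecut1 -1.30), in hbHep over day 6 tumors 2 and 5 (Cebpb 1.19, Onecut1 -1.21), and in YAP1on tumors over FAH liver 2 and 7 (Socs3 2.30, Nr0b2 -3.36). Onecut1 had 1061, 177.1 and 1107 in hbHep, so mouse 2 was again the low one. Of 15 acute phase proteins, 5 rose and 0 fell in day 6 over YAP1on tumors (Saa4 1.91), 4 and 3 in hbHep over YAP1on tumors (Orm2 3.35, Hp -1.20), 2 and 7 in hbHep over day 6 tumors (Orm2 2.71, Lbp -1.74), 2 and 5 in hbHep over FAH liver (Lcn2 6.20, Saa4 -1.80), and 3 and 4 in YAP1on tumors over FAH liver (Lcn2 6.47, Saa4 -4.06).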

How the data were processed

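RNA values were deposited by the authors as a per-gene signal, taken from the table's naming to be scaled reads per base. The submitters' processing notes name kallisto 0.45.0, sleuth and the build GRCm38.p6. kallisto shares reads among similar transcripts. Each of 17 libraries was divided by its median-of-ratios factor (0.9585 to 1.095) and the 2 libraries of each hbHep mouse averaged. Tests used log2(abundance + 1), which understates changes of low genes, with limma 3.58.1 under R 4.3.3: a single linear model held all 4 groups, and eBayes used an intensity trend; the code was tested on simulated data. Counts were not recovered: 50.6 to 58.4% of low values were whole multiples of 1 read (tolerance 0.02). Relative depth was 0.928 to 1.74 times that of the first hbHep library. ATAC intervals on mm10 were deposited by the authors without a stated caller; their scores were not used. Members and lists were chosen with earlier results of these data known. In each comparison the 3 largest called rises and falls, and Hc, were given per sample. Alternatives were other scalings, pseudocounts 0.1 and 10, no filter, only the 2 groups compared, single libraries, no trend, the replicate number as a block and leaving out samples; equal library totals and leaving out both low samples were added after seeing the data. Some genes counted in the pathway lists are not reported here by name.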

Additional observations from a re-analysis of the deposited data

Results flagged for a closer look

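In each group of 4 tumors, the highest and the lowest tumor of each member were set against the others by Dixon's gap ratio at its 95% critical value. Of 82 such groups 10 were past it (12.2%). The members were measured in the same tumors, so these groups are not independent, and the share cannot be set against chance. In all 10 the tumor far from the others was YAP1on tumor 1, the lowest of 4: F7 at 386.2, Plg at 11500, Serpinf2 at 7778, Proc at 1784, Vtn at 14400, C2 at 949.8, Hc at 1184, Cfb at 11070, C1ra at 3436 and C1s1 at 1845. The summed hepatocyte markers of this tumor were 301300, against 479200 to 516200 in the other YAP1on tumors. Its summed macrophage markers were 31130, against 21350 to 26540, a sum that includes Lyz2 at 18420, against 8200 to 11540. Csf1r went the other way, at 2948 against 3611 to 4377. The part of these markers in the flagged values was not tested.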

How the results depend on the processing

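Pseudocounts of 0.1 and 10, no filter, no trend and single hbHep libraries kept each count of members within 1.5 times that reported. Equal library totals also shifted the median of all genes, by the values given above for each comparison. In day 6 over YAP1on tumors, members lower were 0, and 4 with quantile normalization, 3 with equal library totals and 1 with only the 2 groups compared; leaving out each sample gave 19 to 24 higher and 0 lower. In hbHep over YAP1on tumors, members lower were 6, and 14 with quantile normalization and 11 with equal totals; leaving out each sample gave 16 to 24 higher and 6 to 7 lower. In hbHep over day 6 tumors, members higher were 5, and 8 without both low samples, and members lower were 12, and 20 with quantile normalization; leaving out each sample gave 3 to 8 higher and 9 to 14 lower. In hbHep over FAH liver, members higher were 2, and 4 with equal totals and also without both low samples, and members lower were 28, and 12 with quantile normalization and also with equal totals; leaving out each sample gave 1 to 4 higher and 20 to 31 lower. In YAP1on tumors over FAH liver, members higher were 2, and 14 with quantile normalization, 11 with equal totals, 4 without both low samples and 1 as deposited or with only the 2 groups compared, and members lower were 29, and 16 with quantile normalization and 15 with equal totals; leaving out each sample gave 1 to 4 higher and 29 to 31 lower. Hc changed sign in hbHep over day 6 tumors, at 0.21 without hbHep mouse 2 or both low samples (leaving out each sample gave -0.33 to 0.21). It also changed sign in hbHep over FAH liver, at 0.06 with equal totals, where the median of all genes was 0.54. The cause was not tested. Same-numbered samples had correlations of deviations between -0.23 and 0.188, so the numbers do not pair them; with the replicate block 1 member was higher in YAP1on tumors over FAH liver, the other counts stayed within 1.5 times, and 10 calls of single members no longer passed. ATAC gene starts covered in YAP1on tumor numbered 5, and 30 within 500 bases; with intervals of at least 300 bases the counts were 0 in YAP1on tumor, 0 at day 14, 1 at day 33, 0 at day 64 and 0 in liver.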
